A study of Mus musculus with 12 samples.

Results

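The transcripts described here are those of the Notch receptors, their ligands and the pathway's intracellular switch. The 10 genes are the receptors Notch1, Notch2, Notch3 and Notch4, the ligands Dll1, Dll4, Jag1 and Jag2, the inhibitor Numb and the DNA-binding protein gene Rbpj. Every probe set that the platform annotation assigns to exactly 1 of these genes was taken, which gave 19 of the 20380 probe sets with 1 gene, for 10 of 12393 genes. Of these, 13 probe sets of 9 genes had a mean signal over the 12 arrays of at least 47.0, the filter used for testing, and both Jag1 probe sets lay under it.

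RNA came from hind limb muscle cells of C57BL/6J mice aged 8 to 12 weeks and was hybridised to Affymetrix Mouse 430A arrays, 4 per group. Activated satellite cells (ASC) were SM/C-2.6-positive cells grown for 4 days in DMEM with 20% fetal calf serum and bFGF at 2.5 ng/ml. By the labels, MyoD-positive cells made up over 99% of them. Quiescent satellite cells (QSC), the muscle stem cells in their resting state, were positive for the same monoclonal antibody and taken directly after sorting, with over 97% Pax7-positive cells. Non-myogenic cells (NMC) were negative for SM/C-2.6 and for the leukocyte antigen CD45, also taken directly after sorting, and held under 1% myogenic cells. Only the ASC were cultured, so activation, culture and time since sorting cannot be told apart. The labels name no genetic change or treatment in the mice and do not give how many animals or cultures each set of 4 arrays drew on. Each p-value thus reflects array-to-array spread that may be technical, and precision is limited by having few arrays.

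Notch signalling passes between touching cells. A Delta or Jagged ligand on one cell binds a Notch receptor on its neighbour, the receptor is cut by an ADAM protease and by gamma-secretase, and the freed intracellular part enters the nucleus, where it joins Rbpj and a Mastermind co-activator to switch on genes of the Hes and Hey families. In adult muscle the pathway is known for holding satellite cells in quiescence and for limiting their differentiation, and Numb is known as an inhibitor that is handed unequally to daughter cells. In blood vessels, Notch4 and Dll4 are known from endothelium and Notch3 from the mural cells around it.

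Promoter windows from RefSeq (GRCm38.p6, 250 bases before to 50 bases after the start of a gene, 5′ to 3′) were found for all 10 genes, in 14 windows. They were searched on both strands for TGGGAA, the core motif bound by Rbpj, and for CAGCTG, an E-box form bound by MyoD, which do not overlap each other in these windows. TGGGAA was in 2 of the 14 windows, both of Rbpj and overlapping each other, against 25.6% of all 32851 promoter windows. CAGCTG was in 2 windows, those of Jag1 and of the Dll1 start further upstream, against 16.3% of all windows. A match is a description of the letters and not a binding site. The 4 windows printed include those of Notch1 and Notch3, the receptors with the greatest decrease in ASC. The others are of Jag2, the ligand that was higher in ASC, and of Rbpj. In the Rbpj window, capitals mark TGGGAA or its reverse complement TTCCCA.
Notch3, chr17:32166841-32167140, minus strand: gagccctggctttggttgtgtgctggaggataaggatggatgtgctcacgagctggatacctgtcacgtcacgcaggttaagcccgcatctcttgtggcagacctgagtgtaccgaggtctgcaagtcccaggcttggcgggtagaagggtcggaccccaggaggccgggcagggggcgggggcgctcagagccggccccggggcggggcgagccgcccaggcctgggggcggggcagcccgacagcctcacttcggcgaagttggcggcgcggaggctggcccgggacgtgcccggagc
Notch1, chr2:26503773-26504072, minus strand: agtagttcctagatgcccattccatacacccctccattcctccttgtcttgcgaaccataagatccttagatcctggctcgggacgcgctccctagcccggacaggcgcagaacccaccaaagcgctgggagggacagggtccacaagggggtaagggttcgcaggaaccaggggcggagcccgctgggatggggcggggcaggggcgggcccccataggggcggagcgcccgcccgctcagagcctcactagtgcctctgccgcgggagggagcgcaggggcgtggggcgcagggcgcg
Jag2, chr12:112929446-112929745, minus strand: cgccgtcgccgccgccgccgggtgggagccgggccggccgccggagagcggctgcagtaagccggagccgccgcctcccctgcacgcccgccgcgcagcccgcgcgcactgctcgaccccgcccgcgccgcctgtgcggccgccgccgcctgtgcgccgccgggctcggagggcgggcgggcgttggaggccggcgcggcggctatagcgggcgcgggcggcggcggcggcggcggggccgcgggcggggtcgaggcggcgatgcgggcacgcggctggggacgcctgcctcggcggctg
Rbpj, chr5:53590096-53590395, plus strand: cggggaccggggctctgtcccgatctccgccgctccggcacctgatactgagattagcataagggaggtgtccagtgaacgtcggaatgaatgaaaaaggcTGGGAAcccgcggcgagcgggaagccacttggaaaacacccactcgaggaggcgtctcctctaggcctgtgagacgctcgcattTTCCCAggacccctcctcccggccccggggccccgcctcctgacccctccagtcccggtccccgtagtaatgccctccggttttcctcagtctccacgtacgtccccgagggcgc
The windows of Notch3, Notch1 and Jag2 held neither motif, and their GC content was 70%, 68.3% and 86%.

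The deposited signals had 2% trimmed means of 323 to 502 on the 5 arrays of the small-sample labelling kit and 160 to 236 on the 7 of the two-cycle kit. All signals below are therefore given after bringing every array to a trimmed mean of 235.1. Both kits occurred in every group, with 2 and 2 arrays in ASC and in QSC and 1 and 3 in NMC. Within ASC, the summed signal of 7 myofibre markers was 9948 and 7569 on the small-sample arrays and 1015 and 1111 on the two-cycle arrays. The myocyte marker Myog differed between ASC and QSC by 2.36 (small-sample) and 0.15 (two-cycle) on the log2 scale. In ASC, the kit and the state of the cultures thus cannot be told apart. QSC arrays also split by kit in some marker sums. Myofibre sums were 2924.7 and 1779.3 (small-sample) against 4939.7 and 6283.5 (two-cycle), and Schwann cell sums 1413.5 and 1250.5 against 330.34 and 428.06. Endothelial sums overlapped between the kits (6581.8 and 4566.7 against 5820 and 6792.2). Of the markers of the labelled cell types, Myod1, a myoblast factor, was at 4629 ± 1244 (SD, n = 4 here and below) in ASC, 1277 ± 328 in QSC and 36.2 ± 3.96 in NMC, and the satellite cell gene Pax7 at 90.2 ± 31.7, 1071 ± 572 and 4.07 ± 2.42 in the same groups. Of 7 satellite cell markers 6 were called higher in QSC than in NMC, beside 27.4% of all probe sets tested. Cd34 was called lower (log2 -1.19 ± 0.18, SE). Calcr, among the 6, averaged 9.18 in ASC and 9.22 in NMC. It passed the filter only through QSC, so a higher QSC was built into its being tested. Of 5 myoblast and myocyte markers 4 were called higher in ASC than in QSC, beside 30.7% of all probe sets tested. Des was not called (0.08 ± 0.34, SE). Of the 4, Chrng and Myh3 averaged 14.1 and 7.87 in QSC and passed the filter only through ASC. A higher ASC was thus built into their being tested. Markers of other cell types were present in the QSC signal: the summed signal of 15 endothelial markers was 254 to 281 in ASC, 4567 to 6792 in QSC and 19470 to 23850 in NMC, and that of 10 pericyte and smooth muscle markers was 2342 to 5340, 6241 to 9173 and 10990 to 23770. Of the latter sum, Acta2 alone averaged 2963 in ASC, 4734 in QSC and 6917 in NMC. Acta2 was not called between ASC and QSC or between QSC and NMC, and 6 of these 10 markers averaged under the filter in ASC. The summed signal of 8 fibroblast markers was 1162 to 1384 in ASC, 10660 to 19070 in QSC and 34760 to 61780 in NMC. All 8 were called lower in ASC than in QSC and lower in QSC than in NMC. Over all probe sets tested these shares were 37.6% and 24%. Pi16, at 37.7 in QSC, passed the filter only through NMC, so a difference from NMC was built into its being tested. The part of these cell types in the differences below was not tested. For the Gapdh control probe sets, the signal at the 3′ end over that at the 5′ end, a measure of RNA integrity, was 1.75 ± 0.411 in ASC, 4.02 ± 0.969 in QSC and 3.87 ± 0.916 in NMC, and its part in the differences below was not tested. In such bulk samples, fewer cells of a type and less RNA per cell cannot be told apart.

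The receptors Notch1, Notch2 and Notch3 were all highest in quiescent satellite cells and lowest in activated ones, and Notch3 differed most. The ligand Jag2 ran the other way, Numb was low in activated cells, and Notch4 and Dll4 were highest in non-myogenic cells. Of the 13 tested probe sets 2 were called higher and 9 lower in ASC than in QSC, 7 higher and 4 lower in QSC than in NMC, and 1 higher and 8 lower in ASC than in NMC (limma, Benjamini-Hochberg adjusted p under 0.05). Notch4 and Dll4, which passed the filter only through NMC, are among the 4 and the 8, and enter the medians below. Over all 12072 probe sets tested, 30.7% were called higher and 37.6% lower in ASC than in QSC. For QSC against NMC these shares were 27.4% and 24% (51.4% in either direction), and for ASC against NMC 34.1% and 35.9% (70%), beside 68.3% in either direction between ASC and QSC. Among all 19 probe sets, tested or not, all 4 ASC arrays lay above all 4 QSC arrays in 2 and below them in 12, where 23.7% and 27.6% of the probe sets tested did so (51.3% in all). QSC lay clear above NMC in 4 and below in 5, against 19.1% and 18.9% (38% in all), and ASC clear above NMC in 1 and below in 10, against 28.9% and 29.5% (58.4% in all). These shares leave out probe sets below the filter, but the member counts do not. The 12 include Notch2 1451889_at, both Jag1 probe sets and Numb 1425368_a_at. The 5 include Dll4 1421826_at, and the 10 include it with both Jag1 probe sets and Numb 1425368_a_at. The median log2 difference of the 13 probe sets was -1.05, 0.57 and -1.21 in these comparisons, beside -0.12, 0.08 and -0.04 over all probe sets tested. The 3 comparisons share their groups of arrays, so they are not independent of each other.

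**Figure D1:**
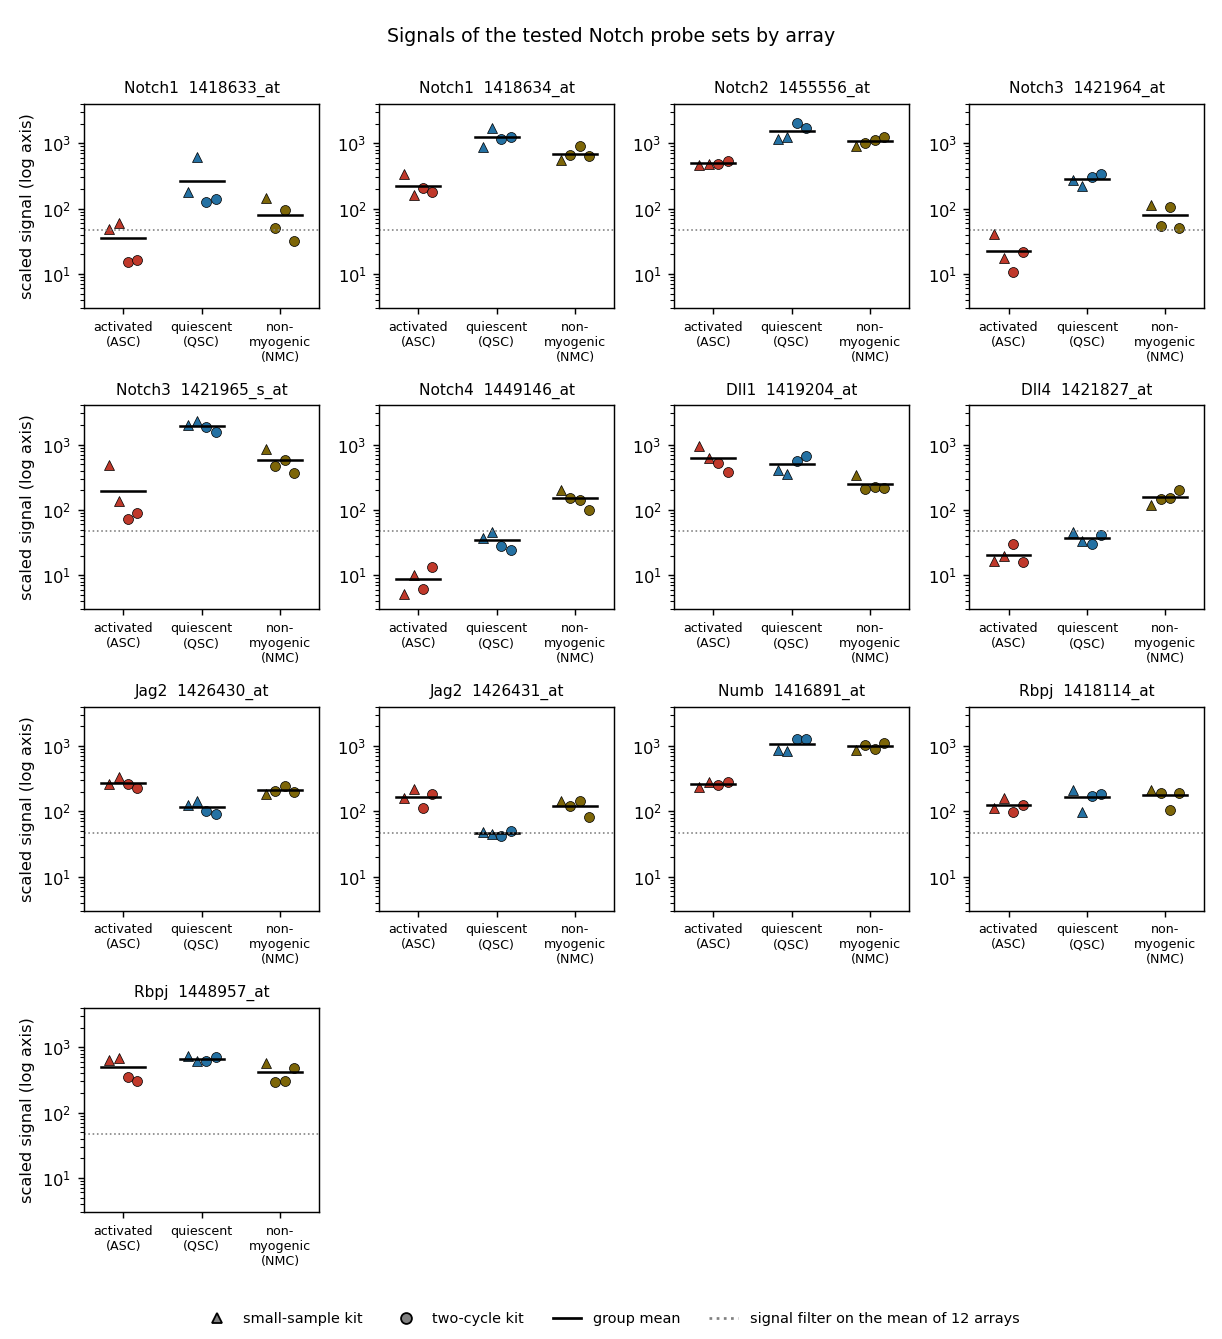
Scaled signal (log axis) of the 13 tested probe sets on each of the 12 arrays, by group, with triangles for the small-sample kit, circles for the two-cycle kit, bars for the group mean and a dotted line at the filter of 47.0. All 4 QSC arrays stand above all 4 ASC arrays for Notch1, Notch2, Notch3 and Numb, and below them for Jag2.

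Notch3, a receptor known from vascular mural cells and satellite cells, showed the widest range among the receptors. Probe set 1421965_s_at, whose suffix marks probes that can match more than 1 transcript, read 491, 135, 73.2 and 88.5 in ASC, 2010, 2269, 1878 and 1580 in QSC and 864, 473, 582 and 367 in NMC. Every QSC array lay above every NMC array, and ASC replicate 1 stood above the lowest NMC arrays while the other 3 ASC arrays lay below all of them. The log2 difference of ASC against QSC was -3.58 ± 0.33 (SE, adjusted p 5.94e-07), a 11.95-fold lower level, and -4.03 without ASC replicate 1. QSC exceeded NMC by 1.56 ± 0.34 on the log2 scale (adjusted p 0.00176), and ASC against NMC gave -2.02 ± 0.34 (adjusted p 0.00012). Probe set 1421964_at showed the same order at lower signals, with 22.8 ± 13.1 in ASC, 286 ± 52.5 in QSC and 81.2 ± 33.6 in NMC, and its 2 log2 differences involving QSC were -3.05 ± 0.27 for ASC against QSC and 1.65 ± 0.27 for QSC against NMC. The pericyte and smooth muscle markers, whose cells are known to express Notch3, were called lower in QSC than in NMC for 8 of 10 genes and higher for 0. Over all probe sets tested these shares were 24% and 27.4%. Abcc9 and Cnn1, among the 8, passed the filter only through NMC, so a difference from NMC was built in. Between ASC and QSC, 7 of the 10 markers were called lower and 1 higher, with a median log2 difference of -1.71. The shares over all probe sets tested were 37.6% and 30.7%. Their part in the Notch3 levels was not tested.

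Notch1, the receptor whose active form is known to keep satellite cells undifferentiated, had the same order of groups. Probe set 1418634_at read 343, 161, 210 and 178 in ASC, 873, 1723, 1167 and 1255 in QSC and 547, 662, 911 and 643 in NMC. The ASC arrays lay below all others, whereas QSC and NMC overlapped through QSC replicate 1 and NMC replicate 3. ASC was 5.40-fold below QSC (log2 -2.43 ± 0.25, adjusted p 1.86e-06) and 3.03-fold below NMC (log2 -1.60 ± 0.26, adjusted p 8.71e-05). QSC was above NMC by 0.83 ± 0.26 on the log2 scale (adjusted p 0.0163), but that call was lost without NMC replicate 1 (0.66, adjusted p 0.0904) and on unscaled signals (0.44, adjusted p 0.149). The dimmer probe set 1418633_at averaged 35.0 ± 23.1 in ASC, 268 ± 237 in QSC and 80.6 ± 49.7 in NMC, with QSC replicate 2 at 621 against 127 to 182 in the other QSC arrays. Its log2 difference between ASC and QSC was -2.33 ± 0.31, and -1.995 without that array. In this probe set QSC exceeded NMC by 1.12 ± 0.32 (adjusted p 0.0105), although the arrays overlapped. The call was kept in all 25 alternative settings in which the probe set was tested. Against NMC its ASC level differed by -1.21 ± 0.32 (adjusted p 0.00409), with an adjusted p of 0.129 when the term for the kit was left out.

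Notch2, the second receptor known from satellite cells, had the same order of groups, with a narrow spread in ASC. Probe set 1455556_at read 471, 479, 489 and 534 in ASC, 1145, 1254, 2062 and 1682 in QSC and 914, 1003, 1127 and 1235 in NMC. ASC lay below both other groups with no overlap, while QSC replicate 1 lay within the range of NMC and the other 3 QSC arrays above it. ASC was 2.97-fold below QSC (log2 -1.57 ± 0.15, adjusted p 6.8e-07), and 2-fold below NMC (log2 -1 ± 0.15, adjusted p 4.63e-05). QSC exceeded NMC by 0.57 ± 0.15 (adjusted p 0.00637), a call that was lost without the kit term (0.49, adjusted p 0.0584) and on unscaled signals (0.18, adjusted p 0.5). The other Notch2 probe set, 1451889_at, did not reach the filter, with 12.3 ± 4.08 in ASC, 35.0 ± 8.05 in QSC and 21.0 ± 7.45 in NMC.

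Notch4, the receptor known from endothelium, had another order, with NMC highest. Probe set 1449146_at read 5.20, 10.2, 6.22 and 13.2 in ASC, 37.7, 46.3, 28.3 and 24.1 in QSC and 204, 153, 141 and 101 in NMC. None of the 3 groups overlapped. The probe set passed the filter only through its NMC arrays, so a difference from NMC was built into its being tested, and its QSC and ASC levels have no measured background. As fitted values, the log2 difference was -1.81 ± 0.19 for QSC against NMC (adjusted p 4.61e-06) and -2.86 ± 0.19 for ASC against NMC (adjusted p 1.54e-08). ASC against QSC gave -1.05 ± 0.19 (adjusted p 0.000232), with every array of both groups under the filter. The second probe set, 1456263_at, lay below the filter with 16.8 ± 9.23, 29.7 ± 16.2 and 19.1 ± 10.2 in ASC, QSC and NMC, so it showed no such order, and over the 12 arrays its log2 signal correlated with that of 1449146_at at r = 0.11.

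Dll4, a ligand known from the tip cells of growing vessels, followed the order of Notch4. Probe set 1421827_at read 16.4, 19.6, 29.8 and 16 in ASC, 46.1, 33.8, 29.9 and 41.2 in QSC and 119, 147, 154 and 201 in NMC. NMC stood clear of both other groups, and the highest ASC array lay just under the lowest QSC array. Like Notch4 it passed the filter only through NMC, with every ASC and QSC array under 47.0, so the same limit applies to its tests. The fitted log2 difference was -1.65 ± 0.18 for QSC against NMC (adjusted p 6.2e-06) and -2.24 ± 0.18 for ASC against NMC (adjusted p 1.01e-07). ASC against QSC gave -0.59 ± 0.18 (adjusted p 0.00965), but -0.14 (adjusted p 0.513) after median centring, -0.10 (adjusted p 0.647) after quantile normalization, -0.42 (adjusted p 0.0845) on unscaled signals, -0.29 (adjusted p 0.0551) with a pseudocount of 1/4 of the trimmed mean and -0.43 (adjusted p 0.132) with two-cycle arrays alone. Probe set 1421826_at, with a mean of 46.9 just under the filter, read 7.26 ± 6.88 in ASC, 12.3 ± 4.17 in QSC and 121 ± 19.3 in NMC, and is a second measure that put NMC above the other groups with no overlap.

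**Figure D2:**
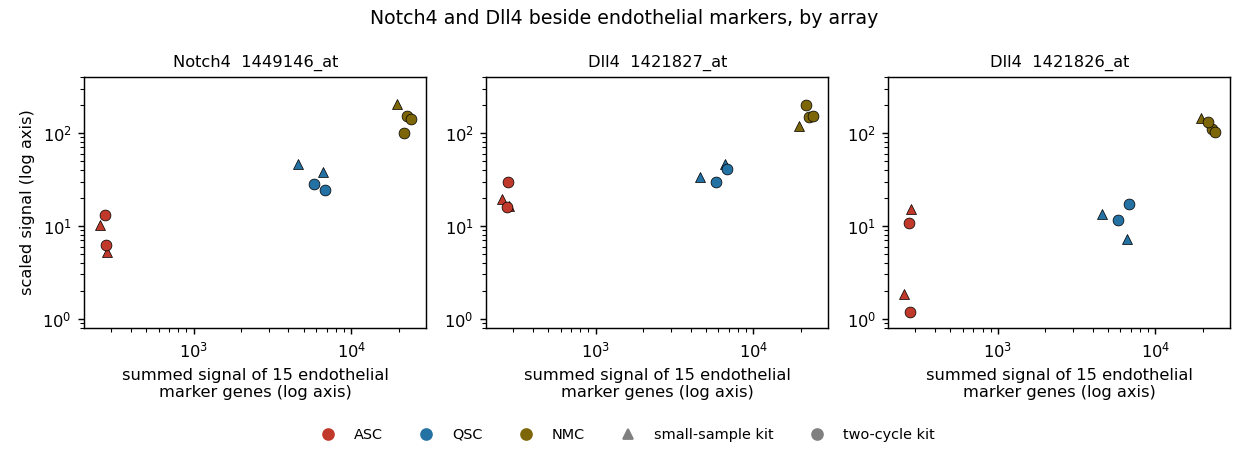
Scaled signal of Notch4 (1449146_at) and of both Dll4 probe sets against the summed signal of 15 endothelial marker genes on each of the 12 arrays, both on log axes, coloured by group. The ASC arrays lie at the low end of the marker sum (254 to 281), the QSC arrays in between (4567 to 6792) and the NMC arrays at the high end (19470 to 23850).

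The endothelial markers had the same order of the 3 groups as Notch4 and Dll4. Within groups, Notch4 did not follow their sum from array to array. It was highest in NMC on replicate 1 (204) and in QSC on replicate 2 (46.3), where the marker sums were lowest (19467 and 4567). Dll4 1421827_at was lowest in NMC on replicate 1 (119). All 15 endothelial markers were called lower in ASC than in QSC and lower in QSC than in NMC. Over all probe sets tested these shares were 37.6% and 24%. Tie1, at 0.768 in ASC and 44.7 in QSC, passed the filter only through NMC, so a difference from NMC was built in. The mean QSC signal was 22.8% of the NMC mean for Notch4, and 24.3% and 10.2% for Dll4 (1421827_at and 1421826_at). For the 15 markers it was 10.4% to 42.5%, with a median of 20.8%. Such a share was not particular to endothelial markers. The median was 23.2% for the pericyte and smooth muscle markers and 16.6% for the myofibre markers. It was lower for fibroblast and tenocyte markers, and higher for leukocyte, Schwann cell, satellite cell and myoblast markers. In ASC 14 of the 15 endothelial markers averaged under the filter, and Eng, which encodes endoglin, was above it at 83.2. Cdh5, which encodes VE-cadherin, was at 8.09 ± 7.21 in ASC, 126 ± 36.4 in QSC and 610 ± 43.5 in NMC. The part of endothelial cells in the Notch4 and Dll4 levels was not tested.

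Dll1, the ligand known to be made by myogenic cells, was called higher in ASC than in NMC. Its single probe set, 1419204_at, read 952, 630, 526 and 382 in ASC, 412, 359, 557 and 669 in QSC and 339, 211, 224 and 214 in NMC. ASC and QSC overlapped, and both stood above every NMC array. ASC was 2.27-fold above NMC (log2 1.18 ± 0.27, adjusted p 0.00137). QSC was above NMC by 0.91 ± 0.27 (adjusted p 0.0123), but by 0.77 (adjusted p 0.052) without QSC replicate 3, 0.66 (adjusted p 0.0634) without QSC replicate 4 and 0.52 (adjusted p 0.173) on unscaled signals, and by 0.18 with small-sample arrays and 1.44 with two-cycle arrays. ASC and QSC did not differ past the threshold (0.28 ± 0.26, 95% interval -0.29 to 0.84, adjusted p 0.364), but ASC was called higher after median centring (0.72, adjusted p 0.0193) and with small-sample arrays alone (0.98, adjusted p 0.0223). With two-cycle arrays the difference was -0.43. Both groups split by kit, QSC with 412 and 359 on small-sample arrays against 557 and 669 on two-cycle arrays. The ASC arrays of the kits also differed in myofibre markers, and so did the QSC arrays. Kit and state of the cells thus cannot be told apart here in either group.

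Jag2 was higher in ASC than in QSC by both of its probe sets. Probe set 1426430_at read 264, 335, 257 and 229 in ASC, 124, 142, 102 and 89.6 in QSC and 184, 204, 247 and 196 in NMC. Probe set 1426431_at read 161, 216, 111 and 184 in ASC, 48.3, 45.0, 41.5 and 50.1 in QSC and 142, 119, 142 and 80.9 in NMC. In both probe sets the QSC arrays lay below all arrays of ASC and of NMC, which overlapped. ASC exceeded QSC by 1.15 ± 0.16 and 1.55 ± 0.19 on the log2 scale (adjusted p 2.4e-05 and 9.39e-06), and QSC against NMC gave -0.84 ± 0.16 and -1.19 ± 0.20 (adjusted p 0.00071 and 0.000238). ASC against QSC gave 1.08 (small-sample arrays) and 1.22 (two-cycle arrays) for the first probe set and 1.72 and 1.39 for the second. Between ASC and NMC the differences of 0.31 ± 0.16 and 0.37 ± 0.20 did not pass (adjusted p 0.107 and 0.113), but did after median centring (0.75 and 0.81, adjusted p 0.00094 and 0.00128) and quantile normalization (0.41 and 0.59, adjusted p 0.0408 and 0.0115). They also passed in single cases without 1 array, for 1426430_at without NMC replicate 3 (0.40, adjusted p 0.0489) and for 1426431_at without ASC replicate 3 (0.54, adjusted p 0.0302).

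Jag1, the ligand of many epithelial and vascular niches, was dim in all 3 groups. Probe set 1421106_at read 12.8, 6.42, 3.04 and 0.765 in ASC, 41.2, 52.4, 25.5 and 30.3 in QSC and 61.0, 27.8, 47.0 and 22.2 in NMC, and 1421105_at averaged 7.84 ± 4.31, 29.7 ± 13.3 and 25.5 ± 10.8. In both probe sets ASC lay below the other groups with no overlap, and QSC and NMC overlapped. With no filter on low signal, which brings 20380 probe sets into the fit, the log2 difference of ASC against QSC was -1.35 ± 0.17 (adjusted p 2.68e-05) and -0.95 ± 0.25 (adjusted p 0.00626), and QSC against NMC gave -0.17 ± 0.18 (adjusted p 0.49) and 0.11 ± 0.25 (adjusted p 0.765). No detection calls were used, so a background level for such dim probe sets was not set.

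**Figure D3:**
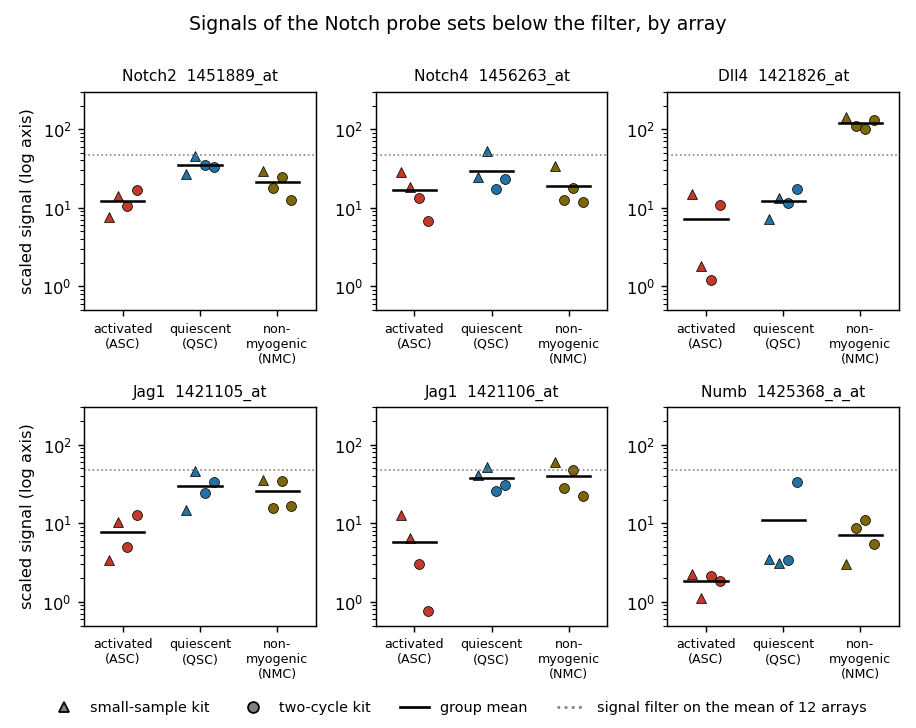
Scaled signal (log axis) of the 6 probe sets below the filter on each of the 12 arrays, by group and kit, with bars for the group mean and a dotted line at 47.0. The Dll4 probe set alone has a group above the line on all its arrays, NMC at 102 to 144, and both Jag1 probe sets have their lowest values in ASC.

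Numb, which encodes an adaptor that draws Notch receptors into endocytosis, was low in ASC. Probe set 1416891_at read 239, 279, 250 and 284 in ASC, 870, 844, 1264 and 1278 in QSC and 869, 1042, 903 and 1119 in NMC. The ASC arrays lay far below the others, and the QSC range took in that of NMC. ASC was 3.82-fold below QSC (log2 -1.93 ± 0.14, adjusted p 7.79e-08, -1.68 with small-sample and -2.19 with two-cycle arrays) and 3.41-fold below NMC (-1.77 ± 0.15, adjusted p 1.42e-07). QSC and NMC did not differ past the threshold (0.16 ± 0.15, 95% interval -0.16 to 0.48, adjusted p 0.378). The second Numb probe set, 1425368_a_at, did not reach the filter, with 1.13 to 10.9 on every array but QSC replicate 4, which read 34.0.

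Rbpj, the DNA-binding protein through which all the receptors act, showed small differences that depended on the processing. Probe set 1448957_at read 638, 697, 351 and 304 in ASC, 744, 613, 608 and 707 in QSC and 571, 297, 308 and 480 in NMC. The ASC arrays split by kit, the small-sample arrays at 638 and 697 lying within the QSC range and the two-cycle arrays below it. Myofibre markers split the ASC arrays in the same way, so kit and culture state cannot be told apart. ASC against QSC gave -0.50 ± 0.21 (adjusted p 0.0498), a call kept in 10 of 28 alternative settings, and the difference came to -0.02 among small-sample arrays and to -0.97 among two-cycle ones. QSC exceeded NMC by 0.58 ± 0.21 (adjusted p 0.037), a call kept in 17 of 27 settings and lost without QSC replicate 3 or 4 or without NMC replicate 1, 2 or 3 (adjusted p 0.0637 to 0.154). Probe set 1418114_at averaged 124 ± 27.7 in ASC, 166 ± 48.5 in QSC and 175 ± 46.9 in NMC, all groups overlapped, and no comparison passed the threshold (adjusted p 0.129 to 0.76). The call of 1448957_at was thus not seen in its companion, and the log2 signals of the pair correlated over the 12 arrays at r = 0.35. ASC against QSC in 1418114_at came to -0.62 (adjusted p 0.0176) without QSC replicate 2, and ASC against NMC to -0.64 (adjusted p 0.0322) without NMC replicate 3 and -0.50 (adjusted p 0.0334) without QSC replicate 2.

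**Figure D4:**
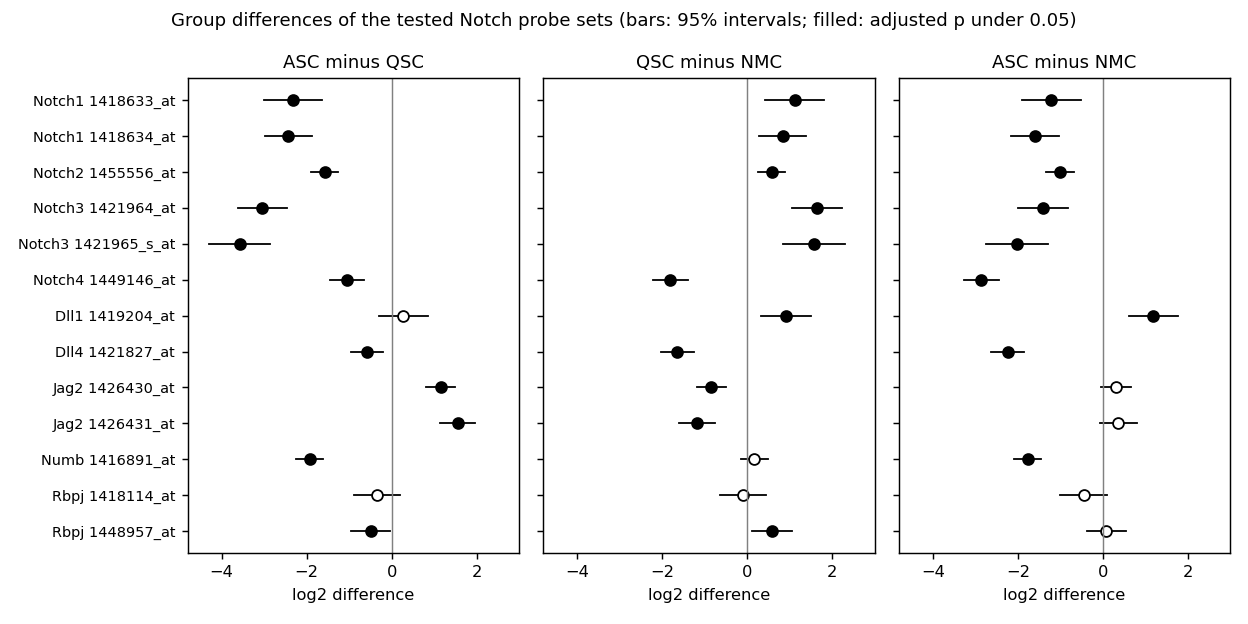
Log2 differences of the 13 tested probe sets in the 3 comparisons, with 95% intervals and filled points for an adjusted p under 0.05. Between ASC and QSC the receptors and Numb lie left of 0 and Jag2 lies right of it, and Dll4 and Notch4 lie furthest left between QSC and NMC. Dll4 and Notch4 passed the filter only through NMC.

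The other genes of the pathway were counted over a list of 52 genes in 6 roles, of which 38 were tested, each by its brightest probe set. Between ASC and QSC 6 were called higher and 19 lower, with a median log2 difference of -0.54, and between QSC and NMC 9 were higher and 8 lower, with a median of 0.08. Of the 6, Dlk2, Dner and Ap2a1 passed the filter only through ASC, so a higher ASC was built into their being tested. Over all probe sets tested, 30.7% were called higher and 37.6% lower between ASC and QSC, with a median of -0.12, and 27.4% and 24% between QSC and NMC, with a median of 0.08. The pathway counts between QSC and NMC lie near those shares. Of the 5 tested genes of the target list, 4 (Heyl, Hey1, Hes1 and Nrarp) were called lower in ASC than in QSC and 1 (Hes6) higher. Of all probe sets tested, 68.3% were called in either direction. Whether the listed genes were Notch targets in these cells was not tested. Heyl averaged 62.2 ± 66.8 in ASC, 2223 ± 726 in QSC and 155 ± 59.5 in NMC (log2 -5.12 ± 0.35 for ASC against QSC). Hey1 (-2.32 ± 0.21), Hes1 (-0.96 ± 0.34, adjusted p 0.023) and Nrarp (-2.28 ± 0.22), which encodes a feedback inhibitor, were lower as well. Hes6, which antagonises Hes1, was at 2871 ± 608 in ASC against 145 ± 58.5 in QSC. For Hes1 the ASC arrays (546 to 571) lay within the QSC range (507 to 1648). Its difference was -0.44 with small-sample and -1.49 with two-cycle arrays. Nrarp was highest in NMC, with 24.9 ± 12.2 in ASC, 171 ± 15.1 in QSC and 854 ± 232 in NMC, the order of Notch4 and Dll4, whereas Heyl and Hey1 were highest in QSC, as Notch1, Notch2 and Notch3 were.

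**Figure D5:**
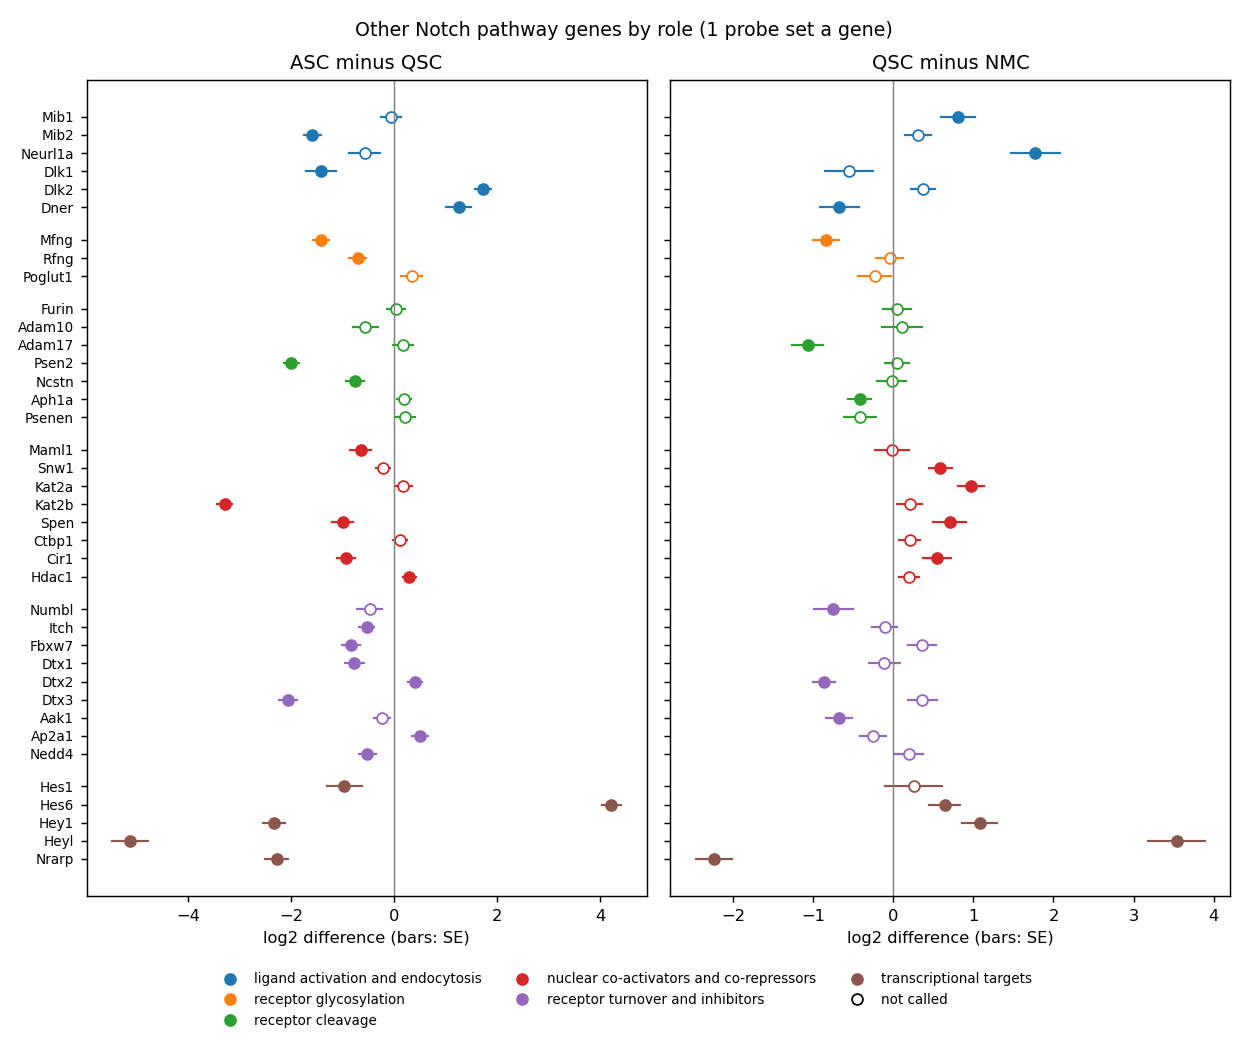
Log2 differences with standard errors of the 38 tested other pathway genes, 1 probe set a gene, coloured by role, with filled points for an adjusted p under 0.05. Heyl and Hes6 lie furthest apart between ASC and QSC, at -5.12 and 4.22.

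The counts for single roles are small and are to be read against the same 30.7% higher and 37.6% lower over all probe sets tested. Of 7 tested genes of receptor cleavage 2 were lower in ASC than in QSC and none higher, namely Psen2 (log2 -1.99 ± 0.15), which encodes a catalytic subunit of gamma-secretase, and Ncstn (-0.76 ± 0.17), which encodes its nicastrin subunit. The protease genes Adam10 and Adam17 differed by -0.55 ± 0.25 (adjusted p 0.0603) and 0.18 ± 0.19 (adjusted p 0.424). Of 8 nuclear cofactor genes 4 were lower in ASC, led by the acetyltransferase gene Kat2b (-3.28 ± 0.15, 142 ± 20.5 in ASC against 1507 ± 217 in QSC), with Spen (-0.99 ± 0.20), a co-repressor of Rbpj, Cir1 (-0.93 ± 0.17) and the Mastermind gene Maml1 (-0.65 ± 0.20), and the deacetylase gene Hdac1 was higher (0.30 ± 0.12, adjusted p 0.0448). The glycosyltransferase genes Mfng (-1.41 ± 0.16) and Rfng (-0.70 ± 0.16), which modify how receptors bind ligands, were the 2 of 3 tested genes of their role that were lower in ASC.

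Of 6 tested ligand-related genes 2 were higher in ASC than in QSC, the non-canonical ligand genes Dlk2 (log2 1.73 ± 0.15) and Dner (1.26 ± 0.24), and 2 were lower, the ubiquitin ligase gene Mib2 (-1.58 ± 0.16), whose relative Mib1 is needed for ligand endocytosis, and Dlk1 (-1.41 ± 0.29). Dlk2 averaged 181 in ASC, 46.6 in QSC and 27.4 in NMC, and Dner 81.1, 22.7 and 40.8. Dlk2 and Dner thus passed the filter only through ASC, so a higher ASC was built into their being tested. Mib1 itself stood at 106 ± 17.2 in ASC, 111 ± 23.7 in QSC and 55.4 ± 20.0 in NMC, and was called higher in QSC than in NMC (0.81 ± 0.21, adjusted p 0.0054), as was Neurl1a (1.78 ± 0.31), which encodes another ubiquitin ligase for ligands. Of 9 genes of receptor turnover 5 were lower in ASC than in QSC, led by Dtx3 (-2.05 ± 0.17) of the Deltex family and Fbxw7 (-0.83 ± 0.17), which marks the active receptor for degradation, and 2 were higher, Dtx2 (0.41 ± 0.13) and Ap2a1 (0.51 ± 0.16). Ap2a1, at 71.0 in ASC, 45.3 in QSC and 41.4 in NMC, passed the filter only through ASC as well. Numbl, the relative of Numb, differed by -0.47 ± 0.24 between ASC and QSC (adjusted p 0.0983).

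Among all 7959 other tested genes, those whose log2 signals over the 12 arrays were most like each member reached Pearson r of 0.90 to 0.99. These values describe 12 arrays that fall into 3 groups, so any gene with the same order of groups scores high. For Notch3 (1421965_s_at) they were Coch (0.975), Capn6 (0.975) and Atp7a (0.972), and for Notch1 Wdsub1 (0.975), Rev3l (0.973) and Gab1 (0.967). For Notch2 they were Abat (0.985), Sesn1 (0.981) and the AP-1 gene Jun (0.978), and for Notch4 Ces2g (0.985), Rtp4 (0.983) and Lyve1 (0.983), which encodes a hyaluronan receptor of lymphatic endothelium. Dll4 was nearest to Gstt2, Rasl11b and Hopx, Numb to Ebf3, Hdgfl3 and the von Willebrand factor gene Vwf, Jag2 to Rexo2, Nans and Csf1, Dll1 to Znrf2, Parg and Abhd17c, and Rbpj to Tmem189, Rdh5 and Il17re. Between members, the brightest probe sets of Notch1 and Notch2 correlated at 0.907, Notch1 and Notch3 at 0.917, Notch4 and Dll4 at 0.915 and Notch2 and Jag2 at -0.852.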

How the data were processed

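The authors deposited linear probe set intensities, credited to MAS5 per the submitters' processing notes, with version and settings not given in the sources used here. Intensity levels differed between arrays, so each was scaled to the median of the 12 trimmed means (2% cut at each tail). Values became log2(signal + 14.7), the pseudocount being 1/16 of the trimmed mean, so fold changes understate those of dim probe sets. Probe sets were named through the platform annotation, with symbols updated by Entrez ID for 20351 of 20380; probe sets of several genes (691), of no listed gene (1555) and controls (64) stayed out. Probe sets whose mean reached 47.0, or 0.2 of the trimmed mean, numbered 12072. They entered a limma 3.58.1 model (R 4.3.3) of all 12 arrays, with terms for group and labelling kit (8 residual degrees of freedom) and Benjamini-Hochberg adjustment over all of them.

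All probe sets of the 10 genes are named. For each role, up to 4 called genes with the smallest adjusted p between ASC and QSC are named too. So are called genes against their role's direction and the 3 genes most like each tested member by Pearson correlation. Not every called gene is named, with Dtx1 and Itch between ASC and QSC left out. Of the pathway genes called between QSC and NMC, only Mib1 and Neurl1a are given with a test. Those left out include Adam17, Kat2a and Dtx2. Pathway genes not called but named beside called ones (Adam10, Adam17, Numbl, Mib1 in ASC against QSC) and Nrarp's order were chosen after their values were seen. Members and lists were chosen with earlier results of these data known. The pipeline was tested on simulated data. Figures used Python 3.11.15 and matplotlib 3.10.9. Alternatives were other kit terms, pseudocounts, filters, scalings, probe set summaries, sample sets and variance models, a replicate block, and each array left out in turn.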

Additional observations from a re-analysis of the deposited data

Results flagged for a closer look

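In the 57 sets of 4 arrays formed by 19 probe sets and 3 groups, 3 held an array whose gap to its nearest neighbour took up more of the group's range than Dixon's 95% limit allows, and chance flags about 1 in 20. Dll1 (1419204_at) was at 338.5 on NMC replicate 1, the only NMC array of the small-sample kit, against 211 to 224 on the others. Numb 1425368_a_at was at 33.99 on QSC replicate 4 and at 3.13 to 3.49 on the other QSC arrays. Rbpj 1418114_at was at 105.6 on NMC replicate 3 and at 190 to 211 on the others.

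The Dll1 difference between ASC and QSC was larger in the small-sample kit than in the two-cycle kit by 1.42 on the log2 scale (limma, the single kit term of this comparison, adjusted p 0.0349), with 0.98 in the small-sample and -0.43 in the two-cycle kit. Since the ASC arrays of the kits, and the QSC arrays as well, also differed in myofibre markers, kit and state of the cells cannot be told apart. The joint test of kit by group over all 3 groups did not pass for Dll1 (adjusted p 0.0696). The interaction of this comparison with the kit was called for 4.66% of all probe sets tested, and for no other of the 13 members (adjusted p 0.118 to 0.968).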

How the results depend on the processing

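Over 28 alternatives for ASC against QSC and 27 for each other comparison, no member reversed as a called result. The calls of Notch3 (both probe sets) and Notch4 (1449146_at) in all 3 comparisons, the Jag2 pair between ASC and QSC and between QSC and NMC, Notch1, Notch2 and Numb between ASC and QSC, and Dll1 between ASC and NMC held in every alternative in which they were tested. Notch4 passed the filter only through NMC, so a difference from NMC was built in and its holding adds no support. In all, 973 single values kept their side of the threshold, 43 lost and 14 gained a call. The median log2 difference of all probe sets between ASC and QSC was -0.12 with trimmed-mean scaling, 0.33 after median centring and 0.17 unscaled, the share of higher among all calls being 45%, 66.1% and 59%. Between QSC and NMC the unscaled median was -0.29 (23.6% of calls higher, against 53.4%), and between ASC and NMC the centred one was 0.40 (66.1%, against 48.8%).

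Median centring called 2854 probe sets lower in ASC than in QSC, against 4540, and 4 members higher in ASC than in NMC, against 1, where quantile normalization called 3. Unscaled, 1316 probe sets and 3 members were higher in QSC than in NMC, against 3309 and 7. A filter at 0.5 of the trimmed mean, which tests 10 members, left 1 higher in ASC than in QSC and 1 lower in QSC than in NMC, against 2 and 4. With 1 probe set per gene, which tests fewer features, 2099 genes were higher in QSC and 2716 in ASC, each than in NMC, and 1 member was higher in ASC than in QSC. Averaging the probe sets of each gene, 2382 genes were higher and 3014 lower in ASC than in QSC, with 1 and 5 members, 2164 were higher in QSC than in NMC, with 4 members higher and 2 lower, and 2649 were higher in ASC than in NMC, with 2 members higher and 5 lower. Except where fewer features were tested, the cause was not tested.

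With a replicate block, 4 members were called higher in QSC than in NMC, against 7; Notch1 1418634_at (0.80, adjusted p 0.0678), Notch2 (0.51, adjusted p 0.0547) and Rbpj 1448957_at (0.51, adjusted p 0.132) lost the call, as did Rbpj between ASC and QSC (adjusted p 0.0759). Deviations of same-numbered arrays correlated at -0.387 to 0.401, and at 0.172 to 0.313 between ASC and QSC, where both share a kit, but at -0.136 to -0.506 there after the kit term, so the numbers were not taken as pairs. Leaving out 1 array at a time gave 3486 to 3698 probe sets higher and 4241 to 4526 lower in ASC than in QSC (2 members higher, 8 to 10 lower), 2885 to 3340 and 2603 to 2858 in QSC against NMC (5 to 7 and 4), and 3850 to 4205 and 4017 to 4439 in ASC against NMC (1 to 2 and 8 to 9). Detection calls were not used, and the low levels of Jag1, Notch4 and Dll4 in ASC have no measured background.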
